A study of Mus musculus with 3 samples.

Results

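The liver supplies most of the proteins of blood plasma, and 37 genes for such proteins were examined in Hepa1c1c7 cells, a mouse hepatoma line. They were chosen by name, for the hepatocyte proteins they encode, out of 22911 named genes on the array, and all 37 had a probe. The cells received an empty expression vector (pCMV6-Kan/Neo), a vector with the open reading frame of the receptor tyrosine kinase Mst1r or of the secreted protease inhibitor Slpi. Every group was thus transfected, and the RNA came from the whole culture about a day later, with no selection step described. Each group was 1 sample on 1 array (100 ng of total RNA, Cy3), so the differences below are between single arrays, with neither a test nor a replicate behind them.

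Hepatocytes secrete carrier proteins such as albumin, the apolipoproteins of lipoprotein particles, and the fibrinogen, clotting factors and inhibitors of the coagulation cascade. These genes are transcribed in hepatocytes under a small set of liver-enriched factors of the HNF4, FOXA and C/EBP families. Fetal liver and many hepatomas make alpha-fetoprotein, the fetal counterpart of albumin. In RNA from a whole culture, fewer cells that express a gene and less RNA per cell cannot be told apart.

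The scanner software flags spots that are well above background, and 46.7% to 48.5% of the 56605 probes carried this flag on an array. The lowest signal of a probe with this flag was 18.9, 18.8 and 16.6 for empty, Mst1r and Slpi vector. No spot was saturated. With the brightest probe of each, the transfected genes do not check the labels on these arrays. Whether their probes lie within the transfected reading frames was not determined. The signal of the Mst1r probe was 4.15 (empty vector), 4.08 (Mst1r vector) and 3.70 (Slpi vector), without the flag on any array. The brighter of 2 Slpi probes gave 6459, 3843 and 6680 on these arrays. A higher level on its own array was thus not established from this probe (log2 difference 0.13 ± 0.14). The other Slpi probe is not described here. The names Mst1r vector and Slpi vector therefore mean the arrays labelled so. All signals below are in this order of arrays: empty vector, Mst1r vector, Slpi vector. Log2 differences were taken after scaling each array to its 75th percentile, and the error after ± is the SD expected from spots of 1 array that repeat a probe, at that signal level. It covers no variation between cultures. Signals of different probes were not set against each other, because probes differ in brightness.

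Upstream sequences of 4 members are shown because each holds the letters TGTTTAC, on either strand, the core of the sites that FOXA factors bind, and because the FOXA genes themselves were measured on these arrays. Of 37 annotated starts of the 31 members matched to the RefSeq promoter table, 4 had the letters within the 250 bases upstream (10.8%), against 3.17% of the 32851 promoters in that table. Rbp4, Apoa2 and Fetub were well above background on every array, whereas Apoh was so on none. Rbp4, Apoa2 and Fetub each had a further annotated start without the letters in its window, which is not printed. For each gene the annotated start whose window holds the letters is printed, with the letters in capitals (GRCm38.p6, 5′ to 3′, up to the base before the start).
Rbp4 (chr19:38125322-38125571, minus strand): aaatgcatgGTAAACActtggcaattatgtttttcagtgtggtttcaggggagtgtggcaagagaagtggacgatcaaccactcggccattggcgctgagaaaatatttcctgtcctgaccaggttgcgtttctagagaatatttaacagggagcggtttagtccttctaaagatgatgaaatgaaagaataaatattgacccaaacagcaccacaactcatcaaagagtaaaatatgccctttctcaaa
Apoa2 (chr1:171224804-171225053, plus strand): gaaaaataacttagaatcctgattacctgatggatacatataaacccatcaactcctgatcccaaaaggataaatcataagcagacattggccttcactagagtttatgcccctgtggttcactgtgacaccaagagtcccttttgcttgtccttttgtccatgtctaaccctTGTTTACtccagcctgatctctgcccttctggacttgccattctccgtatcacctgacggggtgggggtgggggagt
Fetub (chr16:22919972-22920221, plus strand): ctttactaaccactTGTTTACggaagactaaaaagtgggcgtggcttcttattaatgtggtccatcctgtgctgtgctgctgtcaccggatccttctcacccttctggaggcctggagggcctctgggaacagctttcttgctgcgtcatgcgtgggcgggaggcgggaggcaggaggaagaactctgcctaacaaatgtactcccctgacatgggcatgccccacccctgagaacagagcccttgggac
Apoh (chr11:108395047-108395296, plus strand): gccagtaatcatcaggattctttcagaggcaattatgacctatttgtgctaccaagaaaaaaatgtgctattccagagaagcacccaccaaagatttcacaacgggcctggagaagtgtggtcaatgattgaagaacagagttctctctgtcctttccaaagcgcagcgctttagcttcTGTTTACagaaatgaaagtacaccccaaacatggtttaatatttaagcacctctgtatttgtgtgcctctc

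The letters began 241 bases before the start in Rbp4, where they lie on the other strand, 77 in Apoa2, 236 in Fetub and 71 in Apoh. At any annotated start, the letters thus occurred in 3 of 13 members with a promoter in the table that were well above background on all 3 arrays. They occurred in 1 of 14 such members that were so on none. The TATA box letters (TATAAA, on either strand) occurred in 21.6% of the members' windows and 12.4% of all promoters. Other motifs may overlap these letters, and a match is a description of the letters only.

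Some members were well above background in these cells and others were not. On the empty vector array 19 of the 37 members were well above background (51.4%), as were 19 on the Mst1r array and 20 on the Slpi array (54.1%). For all named genes the shares were 58.4%, 57% and 57.8%, so detection among liver secretory genes was no more frequent than among genes at large. On all 3 arrays, 17 members were well above background (45.9%), against 54.4% of all named genes. On no array, 15 members were (40.5%, against 37.8%), and the other 5 were well above background on 1 or 2 arrays (against 7.83% of all named genes). The probes of 11 members lay in the upper rows of the array, where probes bright on a single array were more frequent, and those of 26 in the lower rows. With lower-row probes alone, 12, 12 and 13 of 29 members were well above background. Of the named genes whose brightest probe lay in the lower rows, 56.8%, 56.1% and 56.6% were. The 29 also hold members whose brightest probe lay in the upper rows, such as Alb, so these sets were chosen differently.

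**Figure D1:**
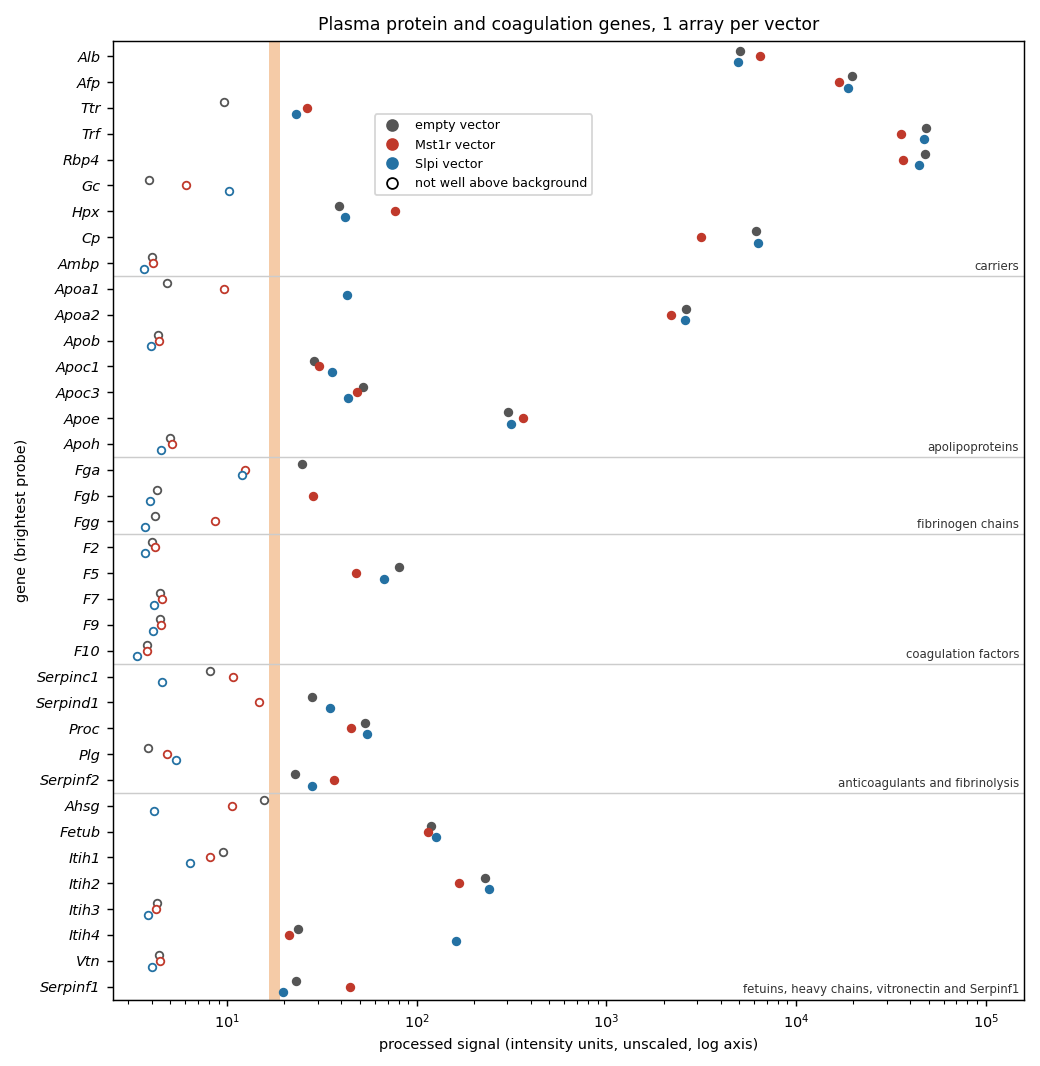
Processed signal of the brightest probe of each of the 37 members (rows, by role) on the 3 arrays (colours), on a log axis in unscaled intensity units. Filled points were well above background and open points were not, and the shaded band spans the lowest signals that carried this flag on the 3 arrays (16.6 to 18.9). Alb, Afp, Trf, Rbp4, Cp and Apoa2 gave signals over 1000 on each array, and 15 members have no filled point.

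Of the carriers, 6 of 9 were well above background on all arrays. A count this small cannot be set apart from the 54.4% of all named genes. Alb, the main carrier of plasma, gave 5083, 6449 and 4966. Afp gave 19822, 16911 and 18850. Both genes of this neighbouring pair were thus expressed, while Afm, which lies next to Afp, and the vitamin D carrier Gc a few genes away had no flagged signal. Trf, the iron carrier transferrin, gave 48573, 35784 and 47485. Rbp4, which carries retinol, gave 48007, 36484 and 44381. Ttr, which binds thyroid hormone and Rbp4, was at background with empty vector (9.60). It gave 26.4 and 22.9 with the other vectors from a probe in row 28. The second Ttr probe (row 244) gave 4.30, 4.30 and 3.93, without the flag. Cp, the copper-carrying ferroxidase ceruloplasmin, gave 6166, 3158 and 6308. Hpx, which binds free haem, was low at 39.0, 76.5 and 41.8. Ambp, the precursor of alpha-1-microglobulin and bikunin, stayed at background (at most 4.05).

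Among the apolipoproteins, 4 of 7 were well above background on all arrays, near the 54.4% of all named genes. Apoa2, a protein of high-density lipoprotein, gave 2631, 2196 and 2591. Apoe, a ligand of lipoprotein receptors, gave 302, 363 and 315. Apoc1 was low at 28.8, 30.5 and 35.5, and its neighbours Apoc4 and Apoc2 in the Apoe cluster were also well above background on all arrays (22.8 to 42.6), so that each of these 4 adjacent genes was detected. In the other cluster the picture differed. Apoc3, an inhibitor of lipoprotein lipase, gave 52.1, 48.1 and 43.4 from 1 of 3 probes. Apoa1, the main protein of high-density lipoprotein, was well above background with Slpi vector only (4.83, 9.64 and 43.1), and Apoa4 and Apoa5 on no array. Apob, the structural protein of very-low-density lipoprotein, was not detected with either of its 2 probes (3.58 to 4.35). Mttp, the transfer protein that loads Apob with lipid, was detected at 99.8, 66.9 and 103. Apoh was not well above background (4.48 to 5.10).

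The clotting genes were largely at background. Of the fibrinogen chains, Fgg was at background throughout (4.14, 8.65 and 3.70). Fga was well above background with empty vector only (24.7, and at most 12.4 with the other vectors), with a second probe at 4.05 to 4.52. Fgb carried the flag with Mst1r vector only (4.27, 28.4 and 3.93). Thus no array had all chains of the fibrinogen hexamer above background. Prothrombin (F2) gave 3.66 to 4.14, and F7, F9 and F10 between 3.33 and 4.51. F5, the cofactor of prothrombin cleavage, was the only coagulation factor among the members detected on all arrays, at 80.6, 47.5 and 66.8.

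The factors F2, F7, F9 and F10, like the anticoagulants Proc, Pros1 and Proz, need a vitamin K-dependent carboxylation of their glutamates. The 3 genes of that vitamin K cycle were detected on all arrays, with Ggcx, the carboxylase, at 468, 363 and 486, Vkorc1 at 4616, 3717 and 4553 and Vkorc1l1 at 534, 443 and 478. Of their substrates, Pros1 (protein S) gave 5121, 4589 and 5044, and Proc (protein C) gave 53.3, 45.0 and 54.7. Proz and the 4 procoagulant factors were at background. F7, F10 and Proz are adjacent genes, and none of them was detected.

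Serpinc1, which encodes antithrombin, was not well above background (4.50 to 10.7), nor was plasminogen, Plg (at most 5.35). Serpind1, or heparin cofactor II, was detected with empty and Slpi vectors (27.9, 14.7 and 34.6). Serpinf2, the plasmin inhibitor alpha-2-antiplasmin, was low on all arrays at 22.8, 36.3 and 28.1. Its adjacent gene Serpinf1, which encodes pigment epithelium-derived factor, gave 22.9, 44.7 and 19.6 from its brightest probe, and its other 2 probes were not well above background.

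Of the fetuins, Fetub was detected (119, 115 and 127), but its neighbour Ahsg, the calcium-binding fetuin-A, was not (15.5, 10.7 and 4.12). The heavy chains of the inter-alpha-trypsin inhibitors bind hyaluronan. Itih2 gave 229, 166 and 240, whereas Itih1 (5.02 to 11.8 over its 2 probes) and Itih3 (at most 4.26) stayed at background. Itih4, the gene next to Itih3, gave 23.5, 21.3 and 161. Vtn, the adhesive plasma protein vitronectin, was at background (4.02 to 4.44).

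**Figure D2:**
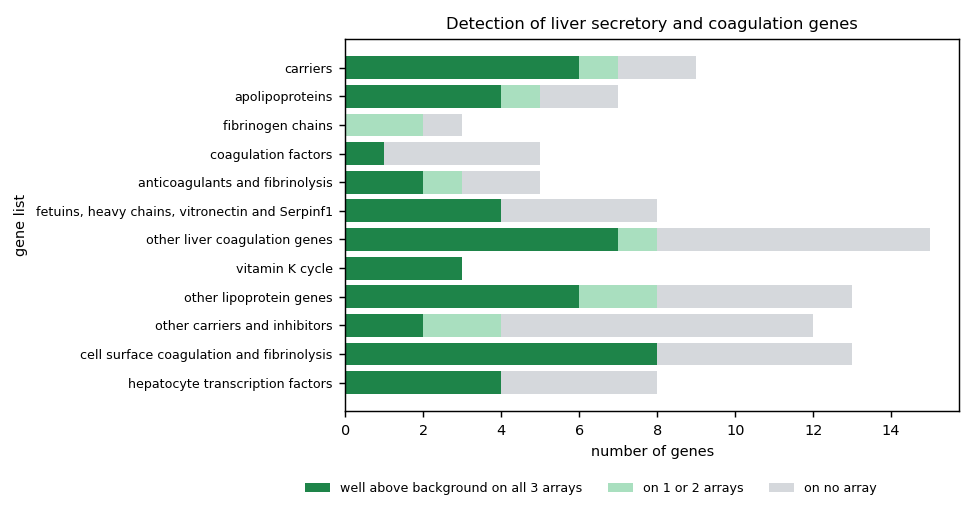
Number of genes well above background on all 3 arrays, on 1 or 2 arrays or on none (stacked bars, x axis), for the 6 roles of the members, the 5 further lists and the hepatocyte transcription factors (y axis). On all 3 arrays, the vitamin K cycle was detected in 3 of 3 genes and the cell surface genes in 8 of 13. The coagulation factors were so in 1 of 5 and the fibrinogen chains in 0 of 3, beside 54.4% of all named genes.

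Further secreted and coagulation genes were described in the same way. Of 56 such genes, 26 were well above background on all arrays and 25 on none, beside 54.4% and 37.8% of all named genes. Other liver coagulation genes were detected on all arrays in 7 of 15, other lipoprotein genes in 6 of 13 and other carriers and inhibitors in 2 of 12. Genes of cell surface coagulation and fibrinolysis, which many cell types express, were detected on all arrays in 8 of 13. Among these were F3, the tissue factor that starts coagulation (317, 414 and 253), Tfpi, which inhibits it (101, 211 and 78.1), and Plat, the tissue plasminogen activator (629, 450 and 627).

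The labelled tissue, liver, was checked on 8 hepatocyte transcription factors, of which 4 were well above background on all arrays and 4 on none. The shares of all named genes were 54.4% and 37.8%. Foxa2 gave 2200, 1773 and 2279 and Foxa1 1314, 1203 and 1237. Nr1h4 and Onecut1 were also detected, from 35.9 to 437. Hnf4a, Cebpa, Foxa3 and Prox1 were not (3.45 to 20.5). Markers of other liver cells were well above background on all arrays in 3 of 4 cholangiocyte and 3 of 5 endothelial genes. So were 2 of 5 stellate and 3 of 6 macrophage and leukocyte genes. Lists this short cannot be set apart from the 54.4% of all named genes. The detected genes were the cholangiocyte genes Krt7 (13189, 7963 and 13233), Sox9 (575, 634 and 477) and Krt19 (53.3, 28.8 and 59.2), the endothelial genes Pecam1, Stab2 and Lyve1 (19.3 to 47.4), the stellate genes Pdgfrb (596, 533 and 592) and Des (227, 37.9 and 58.2), and the leukocyte genes Csf1r (2825, 3293 and 2726), Cd68 (531, 378 and 482) and Cd3e (520, 521 and 576). Reln was detected with Mst1r vector only (7.80, 66.9 and 3.90). Epcam, Cdh5, Kdr, Lrat, Rgs5, Adgre1, Clec4f and Ptprc were at background on each array (3.30 to 6.93).

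With Mst1r vector, the members moved in both directions. A member was counted as different when it differed at least 1.5-fold after scaling and its signal was over 50 on the brighter array. Under this rule Hpx was the single member higher than with empty vector and Cp the single member lower, of 13 with a signal over 50 on the brighter array. Of all 12047 named genes with such a signal, 4.91% were higher and 3.98% lower, so with 1 member on each side the members' counts cannot be set apart from these shares. At 2-fold Hpx was higher and no member was lower, where 3.21% and 2.17% of named genes were. The probes of Hpx and Cp lie in the lower rows, where 3.18% and 1.93% of named genes were past 1.5-fold and 1.62% and 0.368% past 2-fold. Over the 11 members with a mean signal over 50 the median log2 difference was -0.03, between -0.74 and 0.57, with 4 above 0. The median of all named genes with such a mean was -0.05, with the middle 50% between -0.17 and 0.07.

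Alb and Cp were the bright genes with the largest differences. The brighter Alb probe (row 94) was 1.49-fold higher with Mst1r vector, a log2 difference of 0.57 ± 0.14, just under the 1.5-fold limit. The other Alb probe (row 264) gave 3095, 3575 and 2800, a difference of 0.44 ± 0.12. Afp, which lies beside it, did not share this difference (0.0010 ± 0.081). Cp was 1.66-fold lower (-0.74 ± 0.13), with its signal on the Mst1r vector array below that on both others. A second Cp probe (row 285) gave 467, 297 and 486 and differed by -0.42 ± 0.16. A further Cp probe (row 105) lost the flag with Mst1r vector (34.5, 17.1 and 32.7), and the dimmest (row 67) carried it on no array. Averaging all 4 probes gave -0.36, which is under the limit. Trf was lower with both of its probes (-0.21 ± 0.08 and -0.36 ± 0.11), as was Rbp4 (-0.17 ± 0.08). Apoe was higher with both of its probes (0.50 ± 0.16 and 0.49 ± 0.69), the second at signals of 48.4 to 58.0. The 2 Apoa2 probes gave -0.03 ± 0.12 and -0.39 ± 0.16 and so differed in size. The directions of Alb, Cp, Trf, Rbp4 and Apoe with Mst1r vector were kept under each alternative that gave a value, whereas Afp and Apoa2 changed sign with the scaling.

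**Figure D3:**
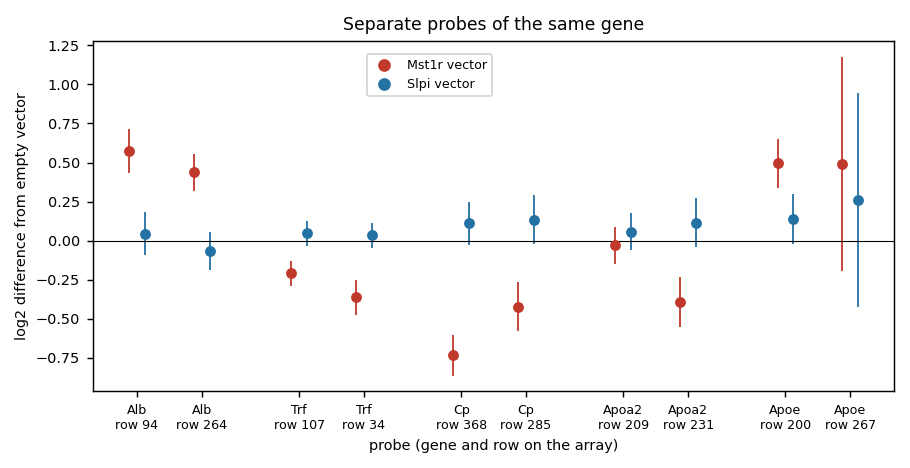
Log2 difference from empty vector (y axis, after 75th percentile scaling) for the separate probes (x axis, with the row on the array) of the 5 members with 2 probes well above background on all arrays. Bars are the SD expected between spots. With Mst1r vector (red) the probes of Alb, Trf, Cp, Apoa2 and Apoe lay on the same side of 0 for all 5 genes, and with Slpi vector (blue) every value lay between -0.07 and 0.26.

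At low signal the differences were larger and their errors wider. Hpx was 2.30-fold higher with Mst1r vector (1.20 ± 0.51, row 143). Its sign was kept under all 10 alternatives, and its value dropped to 0.56 under the normexp correction with an offset of 50, which is under 1.5-fold. Of the named genes with a signal over 50, 2.76% were at least as far above empty vector. Serpinf1 (1.19 ± 0.69) and Serpinf2 (0.90 ± 0.69), which lie side by side, were both higher at signals under 50. F5 differed by -0.53 ± 0.51. Fgb, detected with Mst1r vector alone, was higher there by at least 1.76-fold. The Fgb probe lay in row 152, and on that array 96 of 9371 lower-row probes at background on the other arrays were over 25. By the same kind of bound, Ttr, in row 28, was at least 1.64-fold higher, Serpind1 at least 1.26-fold lower and Fga, in row 94, at least 1.12-fold lower. These bounds leave out the error between spots, 0.69 on the log2 scale for these 3 genes, which is larger than the bounds of Serpind1 and Fga. In the upper rows the share of probes at background on the other arrays that were flagged on the Mst1r array was 8.97%, and in the lower rows it was 1.58%. Fga carried the flag on the empty vector array alone, for which these shares were 12.5% and 1.80%. The part of these stray signals in the low members was not tested.

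**Figure D4:**
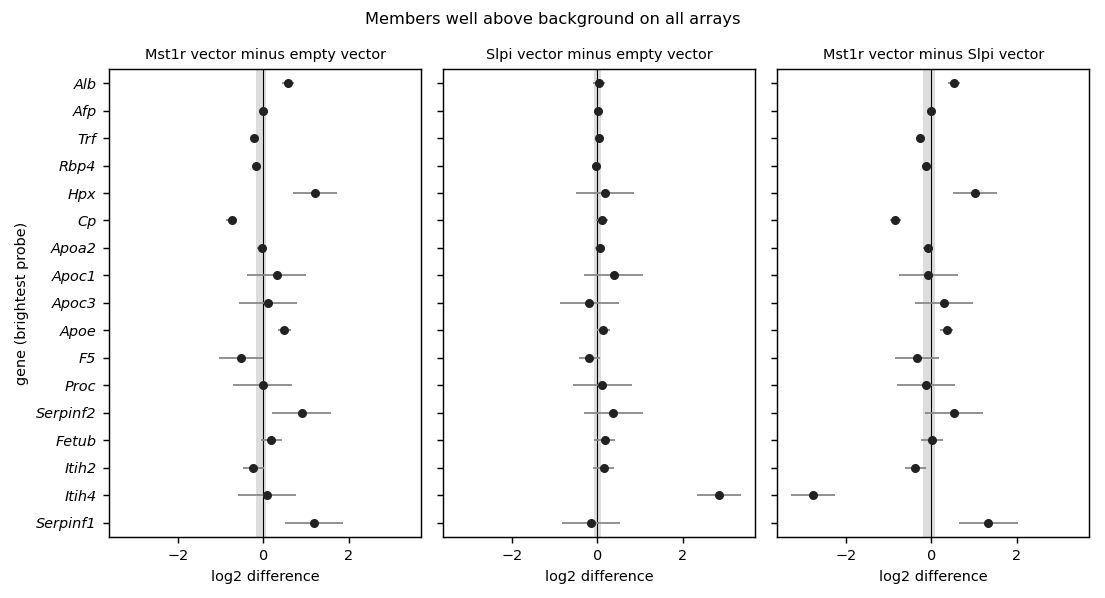
Log2 difference (x axis, after 75th percentile scaling) of the 17 members well above background on all arrays (y axis) in each comparison (panels). Points are brightest probes, bars the SD expected between spots, and the grey band holds the middle 50% of named genes with a mean signal over 50. Alb and Apoe lay above and Cp below the band on the Mst1r vector array with narrow bars. Trf also lay below it there (-0.21 ± 0.08 against empty vector), with a bar that reached into the band. Itih4 stood alone on the Slpi vector array at 2.85.

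With Slpi vector the bright members stayed close to empty vector. Alb, Afp, Trf, Rbp4, Cp and Apoa2 differed by -0.04 to 0.11, each within the error between spots. Over the 11 members with a mean signal over 50 the median was 0.06, against 0.01 for all named genes, and the range was -0.19 to 0.17. The sign of these small differences depended on the scaling, which shifted all genes of this array by 0.17 with median scaling and by -0.24 with spike-in scaling. Itih4 was the single member past 1.5-fold, of 13 with a signal over 50 on the brighter array, where 2.31% of named genes were higher and 2.44% lower. At 2-fold these shares were 1.81% and 2.01%.

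The Itih4 probe in row 281 was 7.23-fold higher with Slpi vector (2.85 ± 0.51), and it was the one array on which it passed 50. The direction was kept under all 10 alternatives, with 1.55 as the lowest value, under normexp. The other Itih4 probe (row 286) gave 3.85, 3.85 and 4.49 and never carried the flag, so that the difference rests on 1 of 2 probes. At least as large a difference was found for 0.986% of named genes with a signal over 50. Within the lower rows, 0.569% of named genes were at least 1.5-fold and 0.384% at least 2-fold higher, and 0.252% and 0.106% were lower by as much. Apoa1, with a single probe in row 167, was at least 2.40-fold higher with Slpi vector. On that array 9 of 9370 lower-row probes at background on the other arrays were over 40. Ttr was at least 1.28-fold higher and Fga, flagged with empty vector only, at least 1.41-fold lower. Both bounds are smaller than the error between spots, which was 0.69 on the log2 scale for each and is not part of the bound. No other member that was well above background with Slpi or empty vector differed by more than 0.39.

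The comparison of Mst1r vector with Slpi vector does not use the empty vector array. Hpx was higher (1.03 ± 0.51), and Cp (-0.85 ± 0.13) and Itih4 (-2.76 ± 0.51) were lower by at least 1.5-fold, of 13 members with a signal over 50 on the brighter array. Of 11937 named genes, 4.94% were higher and 3.88% lower, and at 2-fold 3.07% and 1.86%. In the lower rows, which hold the probes of all 3 members, the shares were 3.13% and 2.17% at 1.5-fold and 1.51% and 0.489% at 2-fold. Alb was higher with both probes (0.53 ± 0.14 and 0.50 ± 0.12) and Trf lower with both (-0.26 ± 0.08 and -0.40 ± 0.11). Apoe differed by 0.36 ± 0.16 and Itih2 by -0.38 ± 0.25. The median over 11 members was -0.13, against -0.05 for all named genes. With Mst1r vector Apoa1 was at least 2.06-fold lower and Fgb at least 1.91-fold higher.

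In the further lists, 2 of 20 genes with a signal over 50 on the brighter array passed 1.5-fold upward with Mst1r vector against empty vector and 2 downward, beside 4.91% and 3.98% of all named genes. Both lower genes had probes in the upper rows, where stray signals were more frequent. The higher genes were Tfpi (1.29 ± 0.25) and F3 (0.62 ± 0.16), an inhibitor and the initiator of the same pathway. The second Tfpi probe (row 374) gave 70.4, 111 and 51.2, a difference of 0.88 ± 0.25, and the third (row 171) carried the flag on the Mst1r array alone. Plat differed by -0.25 ± 0.16. The lower genes were Kng1, the kininogen from which bradykinin is cut (85.7, 26.4 and 62.7, -1.47 ± 0.51, row 8), and Pltp, the phospholipid transfer protein. The Kng1 probes in rows 167 (11.3, 4.68 and 6.17) and 341 (3.76, 3.74 and 3.28) never carried the flag. The Kng1 difference thus rests on 1 of 3 probes. Pltp was well above background with empty vector only (74.997, 4.06 and 3.44, row 62) and at least 3.40-fold lower. Habp2, a protease that activates F7, was 1.40-fold lower (1239, 752 and 1313), with its second probe at -0.54 ± 0.25. Cpb2, a carboxypeptidase that slows fibrinolysis, was at least 1.32-fold lower from a probe in row 33 that was flagged with empty vector only. Selenop, the selenium carrier, differed by -0.44 ± 0.14 (13512, 8499 and 14057). Lcat differed by 0.79 ± 0.69 at signals under 50. Igfals was not well above background with Mst1r vector (21.6, 11.7 and 21.6), and its signals leave no bound on a fold against empty vector.

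With Slpi vector, 1 of 21 such genes was higher and 1 lower, beside 2.31% and 2.44% of all named genes, and both had probes in the upper rows. Apon was 5.41-fold higher (22.3, 22.4 and 114) from a single probe in row 8. Pltp, flagged on the empty vector array alone, was at least 4.29-fold lower. Tfpi (-0.30 ± 0.25), F3 (-0.24 ± 0.21) and Serpine2 (0.27 ± 0.25) differed by little more than the error between spots. By their brightest probes, the vitamin K genes differed from empty vector by -0.14 to 0.13 over both vectors. The second Vkorc1 probe (row 252) fell below this range, at -0.20 ± 0.12 for Mst1r vector and -0.26 ± 0.12 for Slpi vector. For the second Vkorc1l1 probe (row 33) the values were -0.17 ± 0.21 and 0.02 ± 0.16. The hepatocyte factors Foxa1 and Foxa2 differed by -0.08 to 0.13. The markers of other cells did not move one way with Mst1r vector. By their brightest probes, Krt7 (-0.50 ± 0.14), Cd68 (-0.26 ± 0.16) and Des (-2.35 ± 0.51, row 55) were lower, and Sox9 (0.37 ± 0.16), Csf1r (0.45 ± 0.12) and Cd3e (0.23 ± 0.16) were higher. The second Cd3e probe (row 95) lay on the other side of 0, at -0.16 ± 0.51. Reln, in row 106, was higher by at least 4.15-fold. Its second probe (row 197) gave 4.52, 4.54 and 4.18 without the flag, so that the difference rests on 1 of 2 probes. Krt19 differed by -0.66 ± 0.69, Pdgfrb by 0.07 ± 0.16 and the endothelial genes by -0.04 to 0.30. With Slpi vector Des differed by -1.89 ± 0.51 and the other detected markers by -0.50 to 0.23. The part of these markers in the differences of the members was not tested.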

How the data were processed

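RNA of Hepa1c1c7 cells was hybridised to 1-colour SurePrint G3 Mouse arrays, 1 array for each of the 3 vectors, on 1 slide. Per the file headers, the authors obtained spot intensities with Agilent Feature Extraction 12.0.3.1, a later version than the methods name. The deposited processed signal is a background-subtracted and spatially detrended intensity without scaling between arrays. The deposited flags mark spots well above background. The deposited table of the series held the same intensity per probe (99.9% of values within 0.01 on the log2 scale) and served as an alternative.

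From these files, the log2 signals of a probe's spots were averaged without outlier spots, and the 75th percentile of all non-control probes was subtracted, as the methods state. Upper rows are those up to a row chosen, with earlier results known, for the stray signals there. Accessions were matched to RefSeq (GRCm38.p6) for names, which named 32994 of 56605 probes. The brightest probe by mean log2 signal represented a gene, and the signal minimum of 50 is that of the methods. The members and lists were chosen with earlier results of these data known. All members were named, and from each further list up to 3 genes per vector with the largest difference. Pros1, Proz, Mttp, Afm, Apoa4, Apoa5, Apoc2, Apoc4, the hepatocyte factors and the markers of other cells were named in addition, after their values were seen. The error is the SD between spots of probes printed at least 10 times, outlier spots included (0.48 at log2 signals from 3 to 6, 0.057 above 14). It rests on 800 pairs of probe and array above 14, but on 9 pairs from 8 to 10. From 10 to 12 there were 12 pairs and from 12 to 14 there were 19, so the error is less well known there. A probe flagged on the brighter array alone has a bound in place of a fold, for which the dim array takes its own signal or its lowest flagged signal, whichever is larger. The bound leaves out the error between spots, so that "at least" refers to the measured signals only. The normexp alternative used limma 3.58.1 on median spot and local background intensities. Some genes of these lists are not reported here. The calling steps were tested on simulated data. The number of arrays limits the precision, and slide position and group cannot be told apart.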

Additional observations from a re-analysis of the deposited data

How the results depend on the processing

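No paired analysis was possible because each group held 1 array, and no array could be left out. Of 613 single-gene differences recomputed under the alternatives, 545 moved by less than the error between spots. Of the 63 member differences behind them, 27 changed sign under at least 1 alternative. Of those of at least 1.5-fold, 2 did, which were Serpind1 with Mst1r vector (0.013 under normexp) and Ttr with Slpi vector (-0.052 with lower-row probes alone, from its second probe at background). Without a signal minimum, which admits members at background, members past 1.5-fold numbered 9 higher and 3 lower with Mst1r vector, 4 higher and 3 lower with Slpi vector, and 6 higher and 5 lower when these were compared. The share of all named genes under this rule is not given here, so these counts are not a result about the members. The medians were 0.25 and 0.29 for Mst1r vector against empty and Slpi vector. Members at background, such as Ambp and F9, had the first of these values (both 0.25 against empty vector). Under normexp no member was 1.5-fold higher with Mst1r vector in either comparison (0). With the mean over all probes no member was lower with Mst1r vector (0 in both comparisons) or higher with Slpi vector (0). Scaling over detected probes or to the median gave 2 members higher with Mst1r vector, spike-in scaling and no scaling 2 lower, and spike-in scaling 2 higher than with Slpi vector. The median was -0.26 without scaling with Mst1r vector (-0.28 against Slpi vector), and with Slpi vector it was 0.22 with median and -0.18 with spike-in scaling. A change of scaling shifts every gene of 1 array equally. A signal over 50 in place of the flag left 12, 10 and 12 members detected, and lower-row probes alone gave 12, 12 and 13 of 29. The other causes were not tested.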
